A study of Mus musculus with 8 samples.

Results

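Heat shock, chaperone and endoplasmic reticulum (ER) stress genes were examined in the cerebral cortex of mice heterozygous for a CRISPR/Cas9 knock-in of Ago2 L192P (AGO2_L192P/+, here L192P), which keep 1 unaltered Ago2 allele, and of wild-type mice (WT). The members were 48 genes chosen by symbol, of 55416 genes in the count table. All 48 were found in the table, and Ddit3 had a second row under another identifier that held 0 counts in every library and was not used. Each genotype had 4 polyadenylated RNA libraries, and the libraries carried between 20396357 and 43575900 counts. The comparison asked whether transcripts of the protein-folding and stress systems differ in abundance between both genotypes. Argonaute 2, the protein of Ago2, holds a miRNA and represses the mRNAs that it pairs with. The sources used here give neither the age nor the sex of the animals, and the knock-in is carried by all cells, so the cortex libraries mix every cell type of the tissue. In such bulk tissue, fewer cells of a type and less RNA per cell cannot be told apart.

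Chaperones hold unfolded proteins and help them to reach or regain their fold. HSP70 proteins bind and release exposed stretches of a client under the control of J-proteins (Dnaj genes), which start the cycle, and of exchange factors, which end it, while HSP90 proteins take over clients at a later stage. In the cytosol, misfolded protein frees the transcription factor HSF1, which binds heat shock elements and switches on the inducible chaperone genes. In the ER, the unfolded protein response runs through the sensors ATF6, IRE1 and PERK, with XBP1, ATF4 and CHOP (the product of Ddit3) as its transcription factors, and raises ER chaperones through ER stress response elements. Neurons express the constitutive members at high level, and many are known for a weak induction of the inducible ones.

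No member passed the main test between genotypes, which had genotype as its only term. Of the 48, 0 had a DESeq2 adjusted p under 0.05 (called, in what follows), beside 1.36% of the 18627 genes tested. All 48 had enough counts to be tested, and 38 had a mean of at least 1000 normalized counts, which are counts divided by a size factor per library. The log2 fold change of L192P over WT was positive for 23 members and negative for 25. It ran from -0.24 for Cryab to 0.43 for Hspb1, with a median of -0.0013 beside 0.0019 over all genes tested. The median size of the change, without its sign, was 0.06 for the members and 0.10 for all genes tested. These sets were not matched for level. The least abundant member averaged 101.2 normalized counts, while only 13422 genes of the count table averaged at least 50. The smaller median therefore does not show that the members were more stable than genes of like abundance. An unadjusted p under 0.05 was seen for 3 members (6.25%), Hspa4l, Dnajb5 and Hsf1, beside 9.44% of all genes tested. The normalized counts of both genotypes did not overlap for 4 members (8.33%), Hspa4, Hspa4l, Dnajb5 and Hsf1, beside 5.97% of all genes tested. With edgeR and with limma-voom, also with genotype only, 0 members were called. With the replicate number as a block, DESeq2 called 3 members (6.25%), beside 4.25% of all genes tested, and edgeR called 2. On replicates 2 to 4, DESeq2 called 3 members (6.25%), beside 3.46% of all genes tested. These members are named below.

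**Figure D1:**
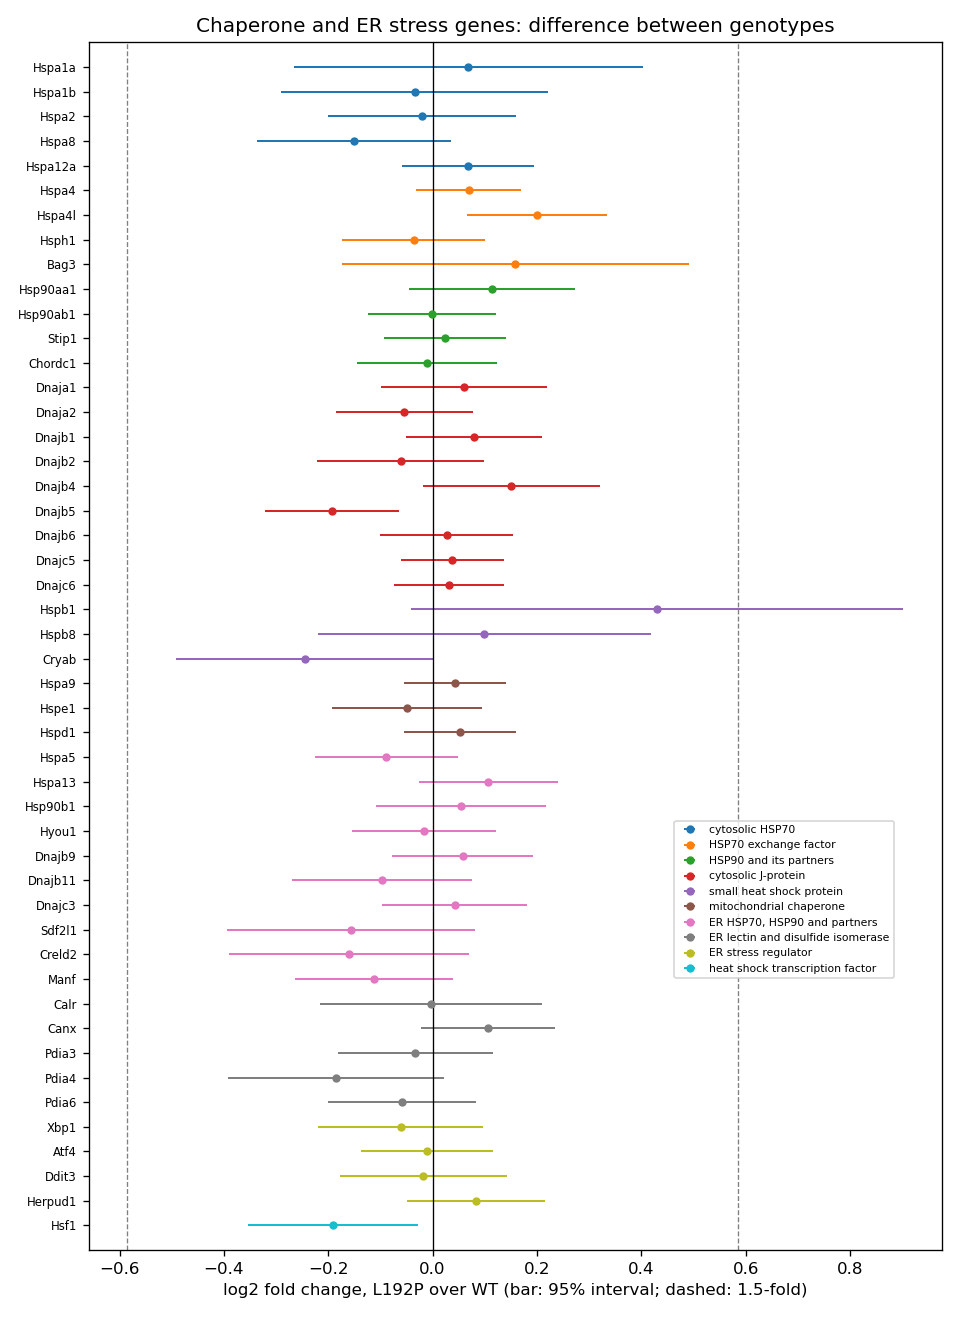
Log2 fold change of L192P over WT (x axis) for each of the 48 genes (y axis, coloured by role), with points for the DESeq2 estimate and bars for its 95% interval; dashed lines mark a 1.5-fold difference. The points lie between -0.24 and 0.43, and the bars of 47 genes stay inside the dashed lines.

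The precision of the estimates bounded the differences. The coefficient of variation among the libraries of a genotype had a median over the members of 7.43% in L192P and 5.76% in WT. The 95% interval of the fold change lay within 1.5-fold in either direction for 47 of 48 members and within 1.2-fold for 31. The exception to the first bound was Hspb1, a small heat shock protein, at 0.971 to 1.87-fold. It was the least abundant member at 101.2 normalized counts on average and is singled out here after its values were seen. Its libraries had 69.1, 145, 136 and 117 normalized counts in L192P replicates 1 to 4 and 73.8, 113, 88.0 and 67.9 in the WT replicates, so the genotypes overlapped.

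Some libraries stood apart from the rest. Replicate 1 of each genotype had almost no Xist RNA (0.934 normalized counts for L192P, 1.82 for WT), against 5185 to 7257 in the other 6 libraries. Same-numbered libraries of both genotypes also deviated from their group means in the same direction across the transcriptome, with correlations over genes of 0.23 to 0.63, so a fit with the replicate number as a block and a fit on replicates 2 to 4 are given where they change a call. Ago2 itself had 2291 ± 75.1 (L192P) and 2246 ± 130.4 (WT) normalized counts (log2 fold change 0.03, SE 0.06, DESeq2 adjusted p = 0.968; SD, n = 4), and the counts do not show which allele a read came from. Among 11 lists of cell type and tissue markers, the called genes were Gad2 of interneurons and the hypothalamic Oxt and Avp, all higher in L192P. The summed excitatory neuron markers ran from 39621 to 44485 in L192P and from 45092 to 46964 in WT, with 0 of 8 genes called, and no gene of any list was at 0 in all libraries. The part of these differences in the members' values was not tested.

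The promoters of some members carry the sequence elements through which the stress pathways are known to act, and a few are shown here as examples. The windows are from RefSeq on GRCm38.p6, run from 250 bases before to 50 after the start of a transcript, and were found for 38 of the 48 members in 50 windows. They were searched on both strands for exact matches. The ER stress response element (ERSE) was spelled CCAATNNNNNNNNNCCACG and was present for 7 members, Calr, Canx, Creld2, Dnajc3, Hsp90b1, Hspa5 and Pdia6, and in 0.119% of all 32851 windows. The related ERSE-II, ATTGGNCCACG, was present for Dnajb11 and Herpud1 and in 0.0365% of all windows, and both elements share the letters CCAAT (or ATTGG) and CCACG. The ATF4 composite element, TTGCATCA, was present for Herpud1 and in 0.895% of all windows, and the XBP1 element (UPRE), TGACGTGG, was present for 0 members and in 0.676% of all windows. In the windows below, written 5′ to 3′ along the gene, capitals mark the ERSE (bases 186 to 204 for Hspa5, 39 to 57 and 144 to 162 for Hsp90b1, 89 to 107 for Calr), the ERSE-II of Herpud1 (199 to 209) and its ATF4 composite element (139 to 146).
Hspa5 (chr2:34771840-34772139, plus strand): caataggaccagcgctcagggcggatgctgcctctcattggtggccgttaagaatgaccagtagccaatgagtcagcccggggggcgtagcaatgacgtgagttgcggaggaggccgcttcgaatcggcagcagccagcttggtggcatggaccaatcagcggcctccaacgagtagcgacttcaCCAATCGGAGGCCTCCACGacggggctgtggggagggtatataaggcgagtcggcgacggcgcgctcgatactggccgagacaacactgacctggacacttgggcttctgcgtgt
Hsp90b1 (chr10:86705395-86705694, minus strand): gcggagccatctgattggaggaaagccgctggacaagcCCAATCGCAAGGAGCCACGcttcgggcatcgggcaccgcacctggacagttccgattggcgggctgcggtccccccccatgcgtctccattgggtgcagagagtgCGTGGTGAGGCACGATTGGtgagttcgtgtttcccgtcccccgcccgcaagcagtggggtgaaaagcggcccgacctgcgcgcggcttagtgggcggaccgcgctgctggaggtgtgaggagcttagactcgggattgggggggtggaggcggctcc
Calr (chr8:84846882-84847181, minus strand): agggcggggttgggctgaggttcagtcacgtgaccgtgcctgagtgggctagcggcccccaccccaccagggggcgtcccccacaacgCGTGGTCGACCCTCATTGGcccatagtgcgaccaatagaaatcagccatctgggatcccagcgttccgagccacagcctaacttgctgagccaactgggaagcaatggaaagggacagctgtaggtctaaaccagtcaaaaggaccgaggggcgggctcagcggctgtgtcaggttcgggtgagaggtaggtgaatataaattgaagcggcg
Herpud1 (chr8:94386179-94386478, plus strand): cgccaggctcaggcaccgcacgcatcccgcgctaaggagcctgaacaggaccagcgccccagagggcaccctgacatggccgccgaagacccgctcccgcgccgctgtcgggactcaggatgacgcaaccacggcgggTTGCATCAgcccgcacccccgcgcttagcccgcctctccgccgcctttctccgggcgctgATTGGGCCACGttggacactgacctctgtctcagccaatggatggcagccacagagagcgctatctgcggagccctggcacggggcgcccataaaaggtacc

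The heat shock element, taken as 3 alternating units and spelled GAANNTTCNNGAA or TTCNNGAANNTTC, was present for 5 members, Chordc1, Dnajb6, Hspd1, Hspe1 and Hsph1, and in 0.603% of all windows. Hspd1 and Hspe1 lie head to head and their windows overlap, so the matches of both genes are the same bases. No window was found for Hspa8, Hsp90aa1, Hsp90ab1, Hsf1, Cryab, Hspa9, Hspa13, Hyou1, Manf and Dnajc5. The windows of Hspa1a, Hspa1b, Dnajb1, Bag3, Hspb1 and Hspb8 were searched and held no match to this exact spelling. Capitals mark the elements at bases 266 to 278 for Hsph1, 247 to 269 for Chordc1 (3 overlapping matches) and 107 to 124 for Hspd1 (an overlapping pair).
Hsph1 (chr5:149636266-149636565, minus strand): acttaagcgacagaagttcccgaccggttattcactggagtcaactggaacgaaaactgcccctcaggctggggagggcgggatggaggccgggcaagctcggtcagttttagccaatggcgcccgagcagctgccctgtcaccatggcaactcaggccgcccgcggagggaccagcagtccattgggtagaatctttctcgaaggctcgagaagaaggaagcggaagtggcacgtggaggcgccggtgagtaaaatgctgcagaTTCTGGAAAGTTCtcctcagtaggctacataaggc
Chordc1 (chr9:18292017-18292316, plus strand): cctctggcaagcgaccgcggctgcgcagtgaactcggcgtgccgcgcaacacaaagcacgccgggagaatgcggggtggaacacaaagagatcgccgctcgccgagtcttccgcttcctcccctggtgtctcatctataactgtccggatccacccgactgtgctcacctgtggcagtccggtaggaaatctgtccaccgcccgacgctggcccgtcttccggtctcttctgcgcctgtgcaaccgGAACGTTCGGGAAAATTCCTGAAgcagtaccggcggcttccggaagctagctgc
Hspd1 (chr1:55087883-55088182, minus strand): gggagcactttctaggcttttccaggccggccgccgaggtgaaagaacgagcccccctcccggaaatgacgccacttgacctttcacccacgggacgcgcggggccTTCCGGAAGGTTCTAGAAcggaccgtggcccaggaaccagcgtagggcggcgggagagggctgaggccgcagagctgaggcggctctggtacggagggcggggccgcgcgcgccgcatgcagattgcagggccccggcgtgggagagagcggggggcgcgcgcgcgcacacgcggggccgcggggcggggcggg

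Because 0 of the 48 members were called, neither group of members with an element could hold a called gene. The log2 fold changes of the 9 members with an ERSE or ERSE-II ran from -0.16 to 0.11 with a median of -0.0022. Those of the 5 members with a heat shock element ran from -0.05 to 0.05 with a median of -0.01. These 5 include Hsph1 but not the inducible Hspa1a, Hspa1b and Dnajb1. A match is a description of the letters and does not show that a factor binds.

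The levels per transcript length set the scale of the system in this tissue. Mean normalized counts over 8 libraries, divided by the length of the canonical transcript in kb, were highest for Hspa8 at 18300, Hsp90ab1 at 17700 and Hsp90aa1 at 9070 per kb. Calr, the ER calcium-binding lectin calreticulin, followed at 4590 per kb. The lowest levels were those of Hspb1 at 110 per kb, the inducible Hspa1b at 88.2, the HSP70 co-chaperone Bag3 at 74.3 and the inducible Hspa1a at 56.5. Hspa2, another constitutive HSP70 gene, stood at 445 per kb. The reads of Hspa1a and Hspa1b, of Hspa8, of Hsp90aa1 and of Hspb1 can be shared with near-identical sequence elsewhere (54.3% to 73.2% of their 50-base stretches), so their places in the order are uncertain. Together the members took between 1.16% and 1.23% of the counts of a library.

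**Figure D2:**
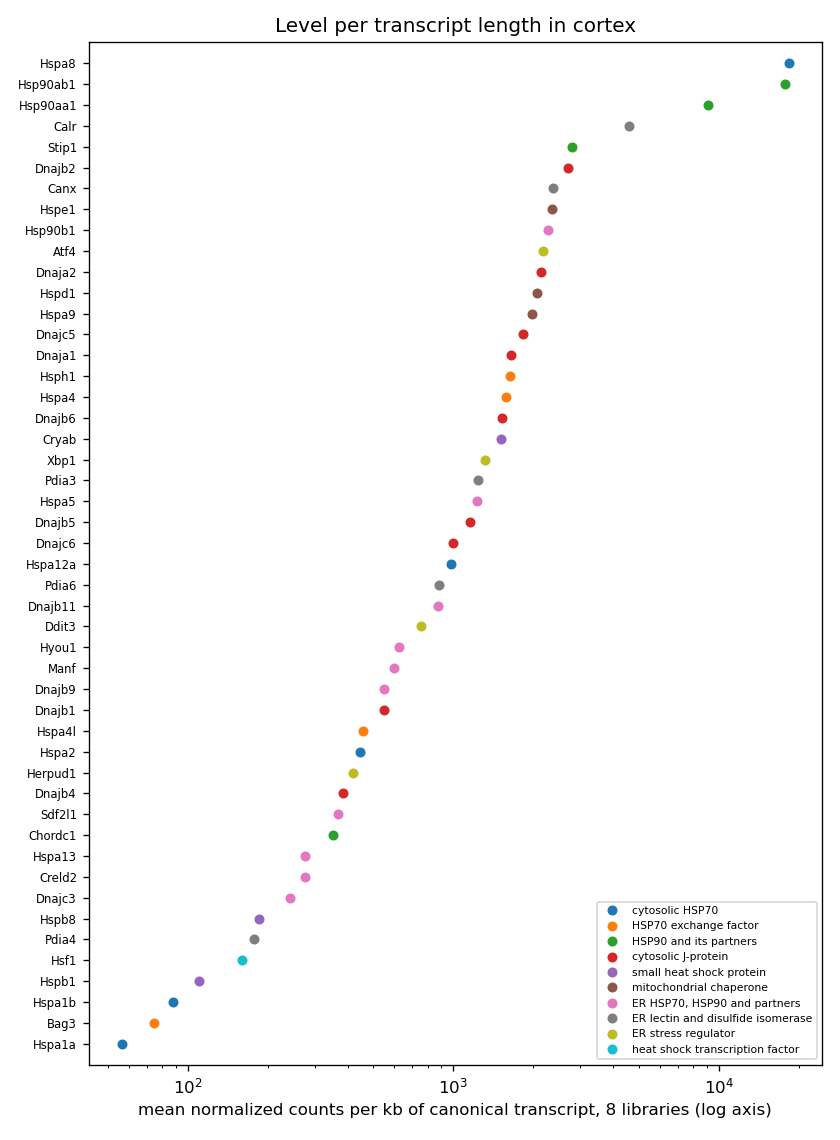
Mean normalized counts per kb of canonical transcript over 8 libraries (x axis, log scale) for each of the 48 genes (y axis, highest first), coloured by role. Hspa8 and Hsp90ab1 stand at 18300 and 17700 per kb, and Hspa1a is the lowest at 56.5.

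Among the cytosolic HSP70 genes, 0 of 5 were called, and the log2 fold changes ran from -0.15 to 0.07. Hspa1a (ENSMUSG00000091971, GRCm39 chromosome 17, 35188166 to 35191132, minus strand), an HSP70 gene that heat shock induces, had 129, 220, 175 and 163 normalized counts in L192P replicates 1 to 4 and 136, 169, 177 and 172 in the WT replicates. Its neighbour Hspa1b (35175412 to 35178214, minus strand), which encodes nearly the same protein, had 236, 233, 233 and 272 in L192P and 214, 229, 266 and 294 in WT. Both genes overlapped between genotypes, with log2 fold changes of 0.07 (SE 0.17, DESeq2 adjusted p = 0.977) and -0.03 (SE 0.13, DESeq2 adjusted p = 0.986). Of the 50-base stretches of Hspa1a, 60.4% also occur in another gene, mostly Hspa1b, so the split of reads between the pair is uncertain, and their summed counts gave a log2 fold change of 0.0063 (DESeq2 adjusted p = 0.998). Hspa2, a constitutive HSP70, and Hspa12a, a distant relative of the family, had log2 fold changes of -0.02 and 0.07.

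Hspa8 (chromosome 9, 40711630 to 40731039, plus strand) encodes HSC70, the constitutive HSP70 that also uncoats clathrin vesicles at synapses. Its L192P libraries had 43759, 42737, 38349 and 41023 normalized counts and its WT libraries 36243, 48262, 49148 and 50518. WT replicate 1 was the lowest of all 8, and the other 3 WT libraries lay above every L192P library. The means were 41467 ± 2365 (SD, n = 4) and 46043 ± 6599. Over all libraries the log2 fold change was -0.15 (SE 0.09, DESeq2 adjusted p = 0.684). On replicates 2 to 4 it was -0.28 (DESeq2 adjusted p = 7.96e-05), so Hspa8 was lower in L192P there, where 3.46% of all genes tested and 3 of 48 members (Hspa8, Dnajb5 and Cryab) were called. Without WT replicate 1 it was -0.25 (DESeq2 adjusted p = 0.0025), in a fit that called 496 genes, against 253 over all 8 libraries. The replicate block over all 8 libraries gave a log2 fold change of -0.14 (DESeq2 adjusted p = 0.705). The 10 listed immediate early genes, which follow neuronal activity, summed to 12992, 14641, 16579 and 12598 in L192P and 10019, 18138, 23654 and 16554 in WT. WT replicate 1 was again the lowest, the genotypes overlapped, and over all libraries 0 of the 10 were called. The part of neuronal activity in the Hspa8 values was not tested. Of the 50-base stretches of Hspa8, 73.2% also occur in other genes, mostly Gm15459, so its count is uncertain in part.

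The HSP70 exchange factors, which release the client by removing ADP from HSP70, had 0 of 4 genes called and log2 fold changes from -0.04 to 0.20. Hspa4l (ENSMUSG00000025757, chromosome 3, 40698643 to 40750538, plus strand) encodes a large HSP110-type relative of HSP70. It had 4736, 4377, 4846 and 4739 normalized counts in the L192P replicates and 4288, 3620, 4193 and 4182 in the WT replicates. All 4 L192P libraries lay above all 4 WT libraries, and WT replicate 2 was the lowest. The means were 4674 ± 204.9 and 4071 ± 304.0 (SD, n = 4), and the log2 fold change was 0.20 (SE 0.07, DESeq2 adjusted p = 0.141). The exact two-sided permutation test gave p = 0.0286, the smallest that 70 splits of 8 libraries allow. Groups that do not overlap always give this value, so it adds nothing to the lack of overlap. Hspa4, with a smaller difference, had the same p in that test. With the replicate block Hspa4l was called, at a log2 fold change of 0.20 (DESeq2 adjusted p = 0.00239), and by edgeR with the block at an adjusted p of 0.0279. The block called 4.25% of all genes tested and 3 of 48 members, which were Hspa4l, Dnajb5 and Cryab. Without WT replicate 1, the library at the top of its own group, Hspa4l also passed, at a log2 fold change of 0.23. That fit called 496 genes, against 253 over all 8 libraries.

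The other large exchange factors had smaller differences. Hspa4, another HSP110-type exchange factor, had 7666, 7656, 7747 and 8348 normalized counts in L192P and 7596, 7234, 7542 and 7584 in WT. Its groups did not overlap either, the highest WT library being replicate 1, and the log2 fold change was 0.07 (SE 0.05, DESeq2 adjusted p = 0.779). Hsph1, the inducible HSP110, had 9140, 10419, 9482 and 10953 in L192P and 9793, 9918, 10380 and 10927 in WT (log2 fold change -0.04, SE 0.07, DESeq2 adjusted p = 0.961). The difference of Hspa4l from these genes was not tested. Bag3, a stress-inducible exchange factor that routes clients to autophagy, had 163, 266, 194 and 200 normalized counts in L192P and 145, 207, 200 and 183 in WT. Its genotypes overlapped, and its log2 fold change was 0.16 (SE 0.17, DESeq2 adjusted p = 0.895).

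HSP90 and its partners had a median size of change of 0.02 on the log2 scale. The 4 genes had log2 fold changes between -0.01 and 0.11 and 0 were called. Hsp90ab1, the constitutive cytosolic HSP90, had 43215, 50768, 48245 and 49532 normalized counts in L192P and 45792, 46988, 49461 and 49587 in WT. Its means of 47940 ± 3314 and 47957 ± 1875 (SD, n = 4) gave a log2 fold change of -0.0005, whose sign depended on the scaling, with a standard error of 0.06 and a 95% interval of 0.918 to 1.09-fold. Hsp90aa1, the inducible HSP90 isoform, had 31465, 32397, 33249 and 35944 in L192P and 34838, 26505, 31322 and 30334 in WT, where replicate 2 was the lowest and replicate 1 the highest. The log2 fold change of Hsp90aa1 was 0.11 (SE 0.08, DESeq2 adjusted p = 0.760). Stip1 encodes HOP, which links HSP70 to HSP90, and had a log2 fold change of 0.02, while that of the HSP90 co-chaperone Chordc1 was -0.01.

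**Figure D3:**
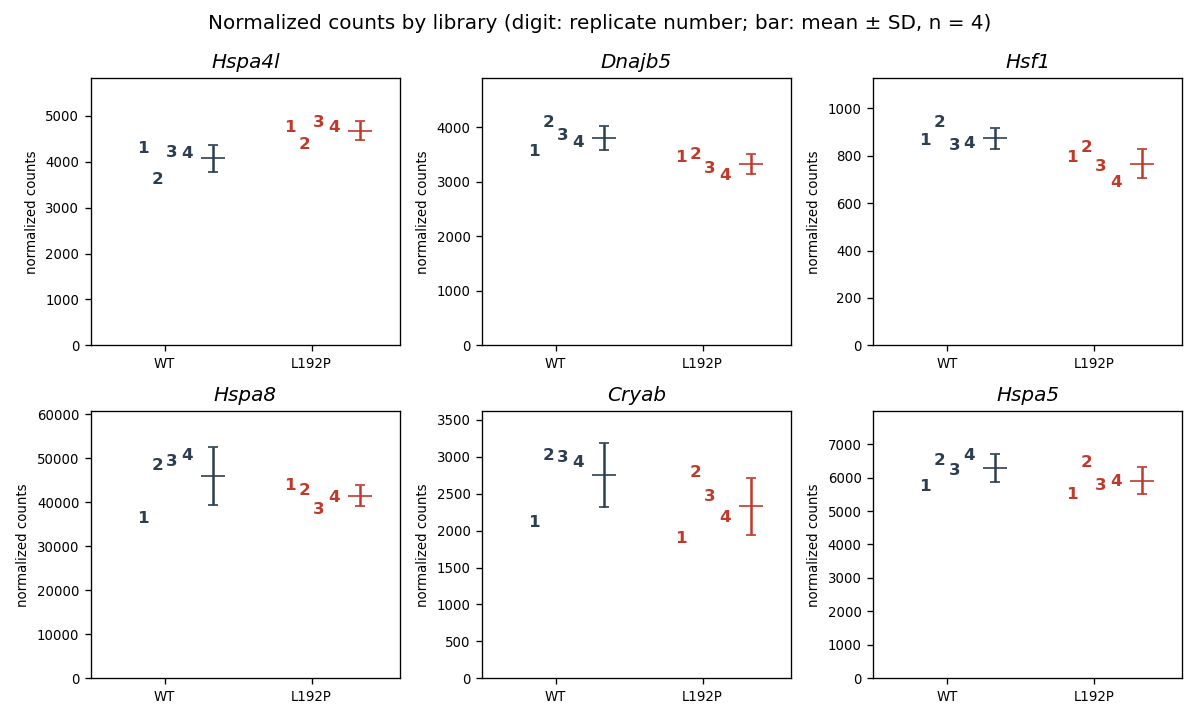
Normalized counts (y axis, from 0) of 6 genes in each library of WT and L192P (x axis), with digits for the replicate number and bars for the mean ± SD of 4 libraries. All L192P libraries lie above WT for Hspa4l and below WT for Dnajb5 and Hsf1, and WT replicate 1 is low for Hspa8 and Cryab.

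Of the 9 cytosolic J-proteins, 0 were called, and 6 had a positive log2 fold change. Dnajb5 (ENSMUSG00000036052, chromosome 4, 42949747 to 42959425, plus strand) is a class B J-protein. It had 3453, 3497, 3242 and 3118 normalized counts in L192P and 3559, 4084, 3854 and 3715 in WT. All L192P libraries lay below all WT libraries, and of the same-numbered libraries those of replicate 1 lay closest. The means were 3328 ± 178.5 and 3803 ± 223.0 (SD, n = 4), and the log2 fold change was -0.19 (SE 0.07, DESeq2 adjusted p = 0.139). The lack of overlap fixed the exact permutation test at p = 0.0286. The gene was called lower with the replicate block (-0.19, DESeq2 adjusted p = 0.0183) and on replicates 2 to 4 (-0.24, DESeq2 adjusted p = 0.015). By edgeR with the block its adjusted p was 0.0504.

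Dnajb1, the J-protein that serves the heat shock response, had 2037, 2116, 1911 and 1858 normalized counts in L192P and 1804, 1851, 1996 and 1853 in WT (log2 fold change 0.08, SE 0.07, DESeq2 adjusted p = 0.827). The J-protein gene with the most normalized counts was Dnajc5, although Dnajb2 and Dnaja2 were higher per kb. Dnajc5 encodes the cysteine string protein of synaptic vesicles. It had 12770, 11953, 11913 and 12375 in L192P and 12157, 11358, 12050 and 12195 in WT, and its log2 fold change was 0.04 (SE 0.05, DESeq2 adjusted p = 0.927). Both genes overlapped between genotypes. The others of this role had log2 fold changes between -0.06 (Dnajb2, which guides clients to the proteasome) and 0.15 (Dnajb4). Dnajc6, which encodes auxilin, the partner of HSC70 in clathrin uncoating, was at 0.03.

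Of the 3 small heat shock proteins 0 were called, and their log2 fold changes ran from -0.24 to 0.43. Cryab (ENSMUSG00000032060, chromosome 9, 50651859 to 50668567, plus strand) encodes alpha-B crystallin, which in brain is known from oligodendrocytes and astrocytes. It had 1893, 2787, 2465 and 2175 normalized counts in L192P and 2110, 3012, 2986 and 2928 in WT. Replicate 1 was the lowest of each genotype, and at each replicate number the L192P library lay below the WT library. The log2 fold change was -0.24 (SE 0.13, DESeq2 adjusted p = 0.539). With the replicate block it was -0.24 (DESeq2 adjusted p = 0.00764), by edgeR with the block the adjusted p was 0.0362, and on replicates 2 to 4 the log2 fold change was -0.27 (DESeq2 adjusted p = 0.0387). Without WT replicate 1 it was -0.35 (DESeq2 adjusted p = 0.0263), and without L192P replicate 1 it was -0.16 (DESeq2 adjusted p = 0.714). These fits called 496 and 275 genes, against 253 in the main fit. The summed oligodendrocyte markers were 93529, 113754, 131227 and 106601 in L192P and 95535, 118755, 135746 and 118883 in WT, also lowest in replicate 1 and lower in L192P at each number, with 0 of 8 genes called. Their part in the Cryab values was not tested. Hspb8, which works with Bag3, had a log2 fold change of 0.10 (SE 0.16, DESeq2 adjusted p = 0.950).

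The mitochondrial chaperones had log2 fold changes from -0.05 to 0.05 and 0 of 3 were called. Hspa9, the mitochondrial HSP70 mortalin, had 6710, 7052, 6742 and 6801 normalized counts in L192P and 6962, 6626, 6537 and 6374 in WT (log2 fold change 0.04, SE 0.05, DESeq2 adjusted p = 0.914). Hspd1 and Hspe1, which encode the chamber and the lid of the mitochondrial chaperonin from a shared promoter region, were at log2 fold changes of 0.05 (DESeq2 adjusted p = 0.883) and -0.05 (0.942).

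Hsf1 (ENSMUSG00000022556, chromosome 15, 76361558 to 76388138, plus strand), the main heat shock transcription factor, had 791, 836, 753 and 689 normalized counts in L192P and 865, 939, 842 and 852 in WT. All L192P libraries lay below all WT libraries. The means were 767.4 ± 62.5 and 874.7 ± 44.2 (SD, n = 4), and the log2 fold change was -0.19 (SE 0.08, DESeq2 adjusted p = 0.364). Here too the exact permutation test was fixed at p = 0.0286 by the lack of overlap. None of the 20 alternative fits called Hsf1, with adjusted p-values from 0.0898 to 0.830. On the opposite strand Dgat1 overlaps it, with 47.3% of the 50-base stretches of Hsf1 shared antisense with other genes, and whether counting used strand is not given in the sources used here. The members described above as inducible were Hsph1 (log2 fold change -0.04), Hspa1b (-0.03), Hspa1a (0.07), Dnajb1 (0.08), Hsp90aa1 (0.11) and Bag3 (0.16). The small heat shock proteins Hspb8 and Hspb1 had 0.10 and 0.43. None of these genes passed the main test, and a link between their values and those of Hsf1 was not tested.

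Of the 19 ER members, 0 were called and 13 had a negative log2 fold change, between -0.19 and 0.11 with a median of -0.02. Hspa5 (chromosome 2, 34661982 to 34668880, plus strand) encodes BiP, the ER HSP70 that holds the stress sensors inactive. It had 5494, 6456, 5777 and 5887 normalized counts in L192P and 5720, 6523, 6219 and 6647 in WT. The genotypes overlapped, and the log2 fold change was -0.09 (SE 0.07, DESeq2 adjusted p = 0.802). Hsp90b1, the ER HSP90 known as GRP94, had 5569, 7096, 6212 and 7333 in L192P and 6226, 6445, 6155 and 6415 in WT (log2 fold change 0.05, SE 0.08, DESeq2 adjusted p = 0.943). Calr had 8164, 11965, 10264 and 11605 in L192P and 9063, 11193, 10774 and 11025 in WT (log2 fold change -0.0022, SE 0.11, DESeq2 adjusted p = 0.999, sign depending on the scaling). For these 3 genes the SD among L192P libraries was larger than the difference between the means. Among the remaining ER members the most negative log2 fold changes were those of the disulfide isomerase Pdia4 at -0.19 (SE 0.11), Creld2 at -0.16 (SE 0.12), the BiP partner Sdf2l1 at -0.16 (SE 0.12) and the secreted factor Manf at -0.11 (SE 0.08), with DESeq2 adjusted p-values from 0.616 to 0.794. The most positive were those of the ER HSP70 Hspa13 and of Canx, the membrane-bound lectin calnexin, both at 0.11 (DESeq2 adjusted p = 0.687 and 0.678). Pdia4 had 868, 1084, 872 and 843 normalized counts in L192P and 919, 1143, 960 and 1147 in WT, so replicate 2 was high in both genotypes and replicate 4 in WT.

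Of the 4 regulators of the ER stress response 0 were called. Xbp1 had 2701, 2774, 2417 and 2257 normalized counts in L192P and 2406, 2669, 2732 and 2787 in WT (log2 fold change -0.06, SE 0.08, DESeq2 adjusted p = 0.927). The counts do not separate spliced from unspliced Xbp1. Atf4 had 3550, 4085, 3529 and 3929 in L192P and 3807, 3785, 3917 and 3691 in WT (log2 fold change -0.01, SE 0.06, DESeq2 adjusted p = 0.993). Ddit3, which encodes the pro-apoptotic factor CHOP, had 671, 818, 707 and 737 in L192P and 749, 755, 725 and 736 in WT (log2 fold change -0.02, SE 0.08, DESeq2 adjusted p = 0.989). Herpud1, an ER membrane protein of the degradation pathway, had 1394, 1351, 1333 and 1309 in L192P and 1261, 1367, 1196 and 1255 in WT (log2 fold change 0.08, SE 0.07, DESeq2 adjusted p = 0.813). The signs of Atf4 and Ddit3 turned with total-count scaling, and each 95% interval of the 3 transcription factors stayed between 0.859 and 1.10-fold. Mars1 overlaps Ddit3, which shares 85.1% of its 50-base stretches antisense with other genes.

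Some members differed between replicates. In a DESeq2 fit with genotype as a term, added after the data were seen, replicate 1 of both genotypes was compared with replicates 2 to 4. Lower in replicate 1 were 4 of the 48 members (8.33%), Cryab, Calr, Dnajb2 and Pdia3, beside 5.35% of all genes tested, and higher was 1 (2.08%), Dnaja1, beside 2.77%. Calr, with a mean of 8614 normalized counts in replicate 1 and 11138 in the others, had a log2 difference of -0.37 (DESeq2 adjusted p = 3.58e-06). Cryab had a log2 difference of -0.44 (DESeq2 adjusted p = 6.88e-06). Dnajb2 and the disulfide isomerase Pdia3 had log2 differences of -0.21 (DESeq2 adjusted p = 0.0209) and -0.18 (0.0478). Dnaja1, a J-protein with 86.1% of its 50-base stretches antisense in Smu1, had a mean of 10365 in replicate 1 and 8839 in the others, with a log2 difference of 0.23 (DESeq2 adjusted p = 0.00167).

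Of the 19 ER members 2 were called lower in replicate 1 and 0 higher. Their median log2 difference of replicate 1 from the others was -0.16, beside -0.0031 over all genes tested. The shift was not particular to the ER members. The medians were -0.17 for cytosolic HSP70 genes, -0.44 for small heat shock proteins, -0.07 for exchange factors and -0.0037 for HSP90 and its partners. Cytosolic J-proteins had 0.08, mitochondrial chaperones 0.03 and Hsf1 0.02. The L192P replicate 1 library was the lowest of its genotype for 11 of 19 ER members (57.9%), and WT replicate 1 for 12 of 19 (63.2%). Of all genes tested, 28.1% and 30.0% had their lowest value there, and of the 29 other members 44.8% and 37.9%. The L192P replicate 2 library was the highest of its genotype for 14 of 19 ER members (73.7%), beside 34.5% of the 29 other members and 25.9% of all genes tested. The 9 members with an ERSE or ERSE-II in the window, all among the 19 ER members, had a median log2 difference of -0.16. The -0.16 of all ER members includes these 9, so setting the medians side by side does not separate members with and without an element. The 5 members with a heat shock element, among them Hspd1 and Hspe1 with the same bases, had 0.03. A link between the shift and the elements was not tested. Several marker lists of non-neuronal cells had their lowest sums in the replicate 1 libraries. The summed astrocyte markers were 45374 and 50956 in the replicate 1 libraries and 67052 to 72667 in the other 6, and the summed endothelial and mural markers were 1357 and 1503 against 1949 to 2966. The summed microglia and oligodendrocyte precursor markers were at 5195 and 5660 against 6865 to 9457, and at 2689 and 2733 against 3372 to 4179. The choroid plexus markers did not follow, at 22739 and 24441 in replicate 1 and 14342 to 38173 in the others. The part of cell composition, of the Xist pattern and of any shared handling of same-numbered animals in the shift was not tested.

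**Figure D4:**
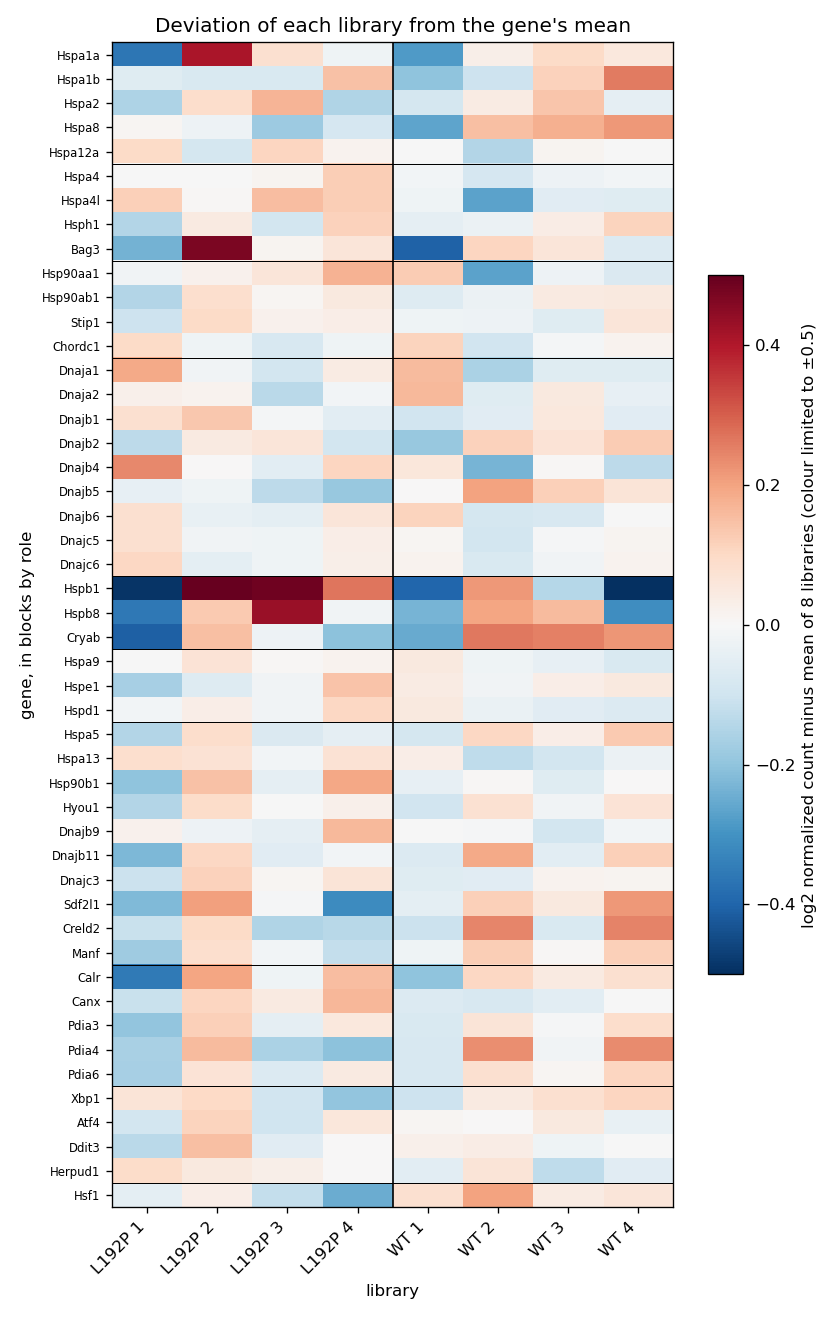
Log2 normalized count of each of the 48 genes (rows, in blocks by role) in each library (columns) minus the gene's mean over 8 libraries, with colour limited to 0.5 in either direction. Replicate 1 of both genotypes is mostly blue (lower) and L192P replicate 2 mostly red (higher) among the ER genes.

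Other genes of the same pathways gave 2 calls among 198, beside 1.36% of the 18627 genes tested. Both were in the list of ATF4 targets. Slc7a11, the cystine transporter, had 648, 883, 921 and 785 normalized counts in L192P and 617, 608, 591 and 647 in WT. It was higher in L192P (log2 fold change 0.39, SE 0.11, DESeq2 adjusted p = 0.0246). Vegfa, the vascular growth factor, had 1303, 1154, 1110 and 1273 in L192P and 1587, 1726, 1435 and 1528 in WT, and was lower (log2 fold change -0.38, SE 0.08, DESeq2 adjusted p = 0.00138). The calls went in opposite directions, and the 28 targets had a median log2 fold change of -0.03. By edgeR the adjusted p-values were 0.138 and 0.0595, so neither was called, while the replicate block and replicates 2 to 4 kept both.

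The remaining lists had 0 calls over all libraries. On replicates 2 to 4 the J-protein Dnaja4 was called, at a log2 fold change of -0.29 (DESeq2 adjusted p = 0.0193), and over all libraries it had -0.16 (DESeq2 adjusted p = 0.624). Among 40 other ER folding genes, the gene with the smallest p was Rcn1, a calcium-binding protein of the ER lumen, at a log2 fold change of 0.23 (DESeq2 adjusted p = 0.0965). Among 25 genes of ER-associated degradation it was Ube2g2, a ubiquitin-conjugating enzyme, at -0.19 and 0.135. Among 28 other J-proteins it was the ER-resident Dnajc10, at 0.15 and 0.327. Smaller still were the differences of the leading genes in the other lists. These were Pfdn6 of 14 chaperonin and prefoldin genes (-0.13), Yme1l1 of 14 mitochondrial genes (0.14), Mbtps1 of 19 stress sensors and factors (-0.12), Hsf2 of 28 cytosolic co-chaperones (0.11) and Cirbp of 2 cold-inducible genes (0.14), with DESeq2 adjusted p-values from 0.446 to 0.791. Over all 198 genes the log2 fold change was positive for 101 and negative for 97, with a median of 0.0023.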

How the data were processed

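Cortex RNA of 4 L192P and 4 WT libraries was sequenced as TruSeq Stranded mRNA. Per the labels' processing notes the tools were STAR 2.7.9a, featureCounts 1.5.1 and DESeq2 1.40.2. The methods of the study name the genome GRCm39. The authors deposited raw counts per gene, which were analysed here, and a table of normalized signal (counts divided by size factors), which was not used. The strand setting and annotation release are not given in the sources used here. The labels do not say that replicates are separate animals, so p-values measure the spread between libraries.

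DESeq2 1.42.0 in R 4.3.3 was fitted to all genes with genotype as the only term, with Benjamini-Hochberg adjustment over 18627 genes and 0.05 as the limit of a call. The tool and the limit follow the methods of the study, which give no design term. Fold changes were not shrunken. Intervals are the estimate and its standard error at 95%. Libraries held 20396357 to 43575900 counts, and the lowest count of a member in a library was 58, so counting error is small for most members. A chi-square test of libraries within a genotype gave 6.04 to 25.3 per degree of freedom, so no library was a copy. Same-numbered libraries correlated at 0.23 to 0.63 (deviations from group means, genes averaging at least 50 normalized counts), and other pairs at -0.38 to 0.14. The labels do not say what a number stands for. Only the fits with the replicate block treated the numbers as pairs, and the main fit did not use them.

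Alternatives were edgeR 4.0.16, limma 3.58.1 (voom), TMM and total-count scaling, a minimum of 10 counts in 4 or more libraries, the Cook filter or independent filtering off, the replicate block, replicates 2 to 4, Hspa1a and Hspa1b summed, and each library left out. A replicate 1 covariate and the comparison of replicate 1 with the rest were added after seeing the data. The members, gene lists and tests were chosen with earlier results of these data known. Named members were those called, with an unadjusted p under 0.05, with non-overlapping groups or most abundant in their role, and Hspa1a, Hspa1b, Dnajb1, Hsph1, Hspa5, Ddit3, Xbp1, Atf4 and Hsf1. Values of the other members were chosen for the text after they were seen. A gene of the other lists was named where called, or as the smallest p of its list. Positions, lengths and 50-base sharing come from GENCODE M39 on GRCm39 (98.8% of identifiers found), and 4 aminoacyl-tRNA synthetase genes were matched through it. The fits were tested on simulated counts with changes larger than any difference between genotypes among the members. That test does not show how often differences of the members' size would be called.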

Additional observations from a re-analysis of the deposited data

Results flagged for a closer look

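In 11 of 96 groups of 4 libraries (48 genes in 2 genotypes), 1 library stood apart from the other 3. The rule was a gap above the 95% critical value of Dixon for its share of the range, and its nominal rate gives 4.8. The share over all genes tested is not given here, so the 11 are not shown to be particular to these members. WT replicate 2 was the low library for Hspa4l (3620 normalized counts, others 4182 to 4288), Hspa4 (7234, others 7542 to 7596) and Hspa12a (5159, others 5700 to 5758). WT replicate 1 was the low library for Hspa8 (36243, others 48262 to 50518) and Cryab (2110, others 2928 to 3012). L192P replicate 2 was the high library for Pdia4 (1084, others 843.3 to 871.7) and Creld2 (413.1, others 348.2 to 356.9). L192P replicate 4 was the high library for Hspa1b (271.9, others 232.9 to 236.4) and Hspa4 (8348, others 7656 to 7747). L192P replicate 3 was the low library for Hspa13 (1160, others 1230 to 1241), and WT replicate 3 the low library for Dnajb9 (1267, others 1338 to 1351).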

How the results depend on the processing

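The count of called members depended on how the replicates were treated. It was 0 with all genotype-only fits on 8 libraries. It was 3 with the replicate block in DESeq2 (1 higher, 2 lower), 2 with the block in edgeR (1 and 1), 3 on replicates 2 to 4 (0 and 3) and 2 with replicate 1 as a covariate (1 and 1). Leaving out 1 library gave 0 to 4 called members, 0 to 1 higher and 0 to 3 lower, and the 4 (Hspa8, Hspa4l, Dnajb5 and Cryab) appeared without WT replicate 1. Over all genes the 253 calls became 53 with edgeR, 45 with limma-voom, 533 and 537 with the block in DESeq2 and edgeR, 500 on replicates 2 to 4 and 459 with the covariate. Leaving out 1 library gave 112 (without WT replicate 4) to 496 (without WT replicate 1). The 2 pathway calls became 0 with edgeR and with limma-voom, and 1 to 3 without 1 library (3 without WT replicate 1, with Vbp1 added, and 1, Vegfa, without replicate 2, 3 or 4 of either genotype). They were 3 on replicates 2 to 4 (Dnaja4 added) and with total-count scaling or the block in edgeR (Rcn1 added). The median log2 fold change of the members stayed between -0.02 and 0.02.

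Of 379 values of the 19 named members under an alternative, 28 turned sign, all of log2 fold changes near 0. With total-count scaling these were Atf4 at 0.0133, Calr at 0.0219, Ddit3 at 0.006 and Hsp90ab1 at 0.0238, and on replicates 2 to 4 they were 0.0173, 0.0346, 0.027 and 0.0231. Hsp90ab1 was 0.0011 with edgeR and 0.0004 with the count minimum. Leaving out 1 library gave Atf4 -0.0517 to 0.0215, Calr -0.0719 to 0.0997, Ddit3 -0.0757 to 0.0227, Hsp90ab1 -0.0301 to 0.0448, Hsp90b1 -0.0039 to 0.1234, Hspa1a -0.0746 to 0.1869, Hspa1b -0.102 to 0.0464 and Hsph1 -0.0824 to 0.0032. The causes were not tested. Beyond Hspa4l, Dnajb5 and Cryab, the replicate block changed the call of no named member. Hspb1, with the lowest counts, had the widest interval.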
